A study of Homo sapiens with 6 samples.

Results

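The peaks described here are the sites at which anti-PAI-1 chromatin immunoprecipitation gave an enriched region in both replicate libraries of RT112 cells. Members were the peaks of RT112 replicate 1 that overlapped a peak of RT112 replicate 2 by at least 1 bp, after lines with the same interval had been counted once with their highest score. This rule kept 36845 of the 96423 peaks of replicate 1 (38.2%), out of 380031 peaks in all 4 lists. On the side of replicate 2, 36920 of 60227 peaks (61.3%) overlapped a replicate 1 peak. The peaks found in a single replicate, 59578 in replicate 1 and 23307 in replicate 2, served for comparison and are called single peaks below.

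RT112 and UM-UC-3 are established human bladder cancer cell lines, and no treatment is named in the labels for either. For each line, chromatin from nuclear extracts was precipitated with a monoclonal antibody against PAI-1 in 2 biological replicates, and 1 input library without antibody was made. The 4 ChIP libraries had peak lists, while the 2 input libraries were not analysed here. The lists hold no expression values, so the urothelial origin of the cells was not checked against marker transcripts.

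PAI-1 is a serine protease inhibitor that blocks tissue-type and urokinase-type plasminogen activator and thereby slows the conversion of plasminogen to plasmin. It is secreted and binds vitronectin in the extracellular matrix, and the study examined it in the nucleus. In ChIP-seq, DNA fragments that come down with an antibody are sequenced, and a peak caller marks the stretches where they pile up. A peak shows enrichment of DNA in the precipitate and does not by itself show that the protein touches that DNA.

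Some of the strongest members are shown first, because the composition of their DNA recurred in the peaks described further on. Members were ranked by the worse of their ranks by score in the replicates, where the score is the value of the peak caller on a −log10 scale, from either p or q. Of the 10 best-ranked members, 5 had purine-skewed DNA, meaning that purines (A and G) and pyrimidines (C and T) differed by at least 30 points of the bases in the 200 bp at the peak midpoint, so that 1 strand was at least 65% purine. The windows of 3 of these members are given below, from the plus strand of GRCh37/hg19, 5′ to 3′, with runs of at least 12 purines or 12 pyrimidines in capitals.
chrX:48646561-48646760: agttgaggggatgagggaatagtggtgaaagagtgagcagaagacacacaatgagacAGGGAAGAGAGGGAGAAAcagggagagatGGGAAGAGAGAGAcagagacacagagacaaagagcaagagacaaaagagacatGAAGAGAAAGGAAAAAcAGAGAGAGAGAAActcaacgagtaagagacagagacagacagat
chrX:48854180-48854379: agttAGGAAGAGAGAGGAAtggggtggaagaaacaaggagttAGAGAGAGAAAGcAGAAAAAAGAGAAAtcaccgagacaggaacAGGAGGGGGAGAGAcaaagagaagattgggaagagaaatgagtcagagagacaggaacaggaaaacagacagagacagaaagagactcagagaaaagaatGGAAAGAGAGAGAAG
chr1:18711484-18711683: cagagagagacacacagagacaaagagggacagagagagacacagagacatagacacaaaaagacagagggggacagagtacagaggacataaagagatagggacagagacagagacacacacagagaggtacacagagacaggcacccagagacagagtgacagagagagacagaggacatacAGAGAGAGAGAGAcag
The first of these windows lay in GATA1, which encodes a transcription factor of red cell and platelet development, with scores of 95.3 in replicate 1 and 66.1 in replicate 2. The second lay in GRIPAP1, which encodes a protein that binds a glutamate receptor scaffold, and had the largest skew of the 10, at 71 points. The third lay 6.42 kb from IGSF21, an immunoglobulin superfamily gene, with scores of 62.7 and 79.0.

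For contrast, the next windows came from other strong members, without the skew, in intergenic DNA 945.1 kb from the cadherin gene CDH11 and in an intron of the annexin gene ANXA4, and from the strongest member in ANXA6, the gene with the highest density of members.
chr16:64032369-64032568: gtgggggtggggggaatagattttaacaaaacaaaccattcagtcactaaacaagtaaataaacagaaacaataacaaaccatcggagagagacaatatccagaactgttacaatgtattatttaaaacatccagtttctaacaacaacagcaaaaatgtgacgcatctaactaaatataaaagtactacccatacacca
chr2:70012743-70012942: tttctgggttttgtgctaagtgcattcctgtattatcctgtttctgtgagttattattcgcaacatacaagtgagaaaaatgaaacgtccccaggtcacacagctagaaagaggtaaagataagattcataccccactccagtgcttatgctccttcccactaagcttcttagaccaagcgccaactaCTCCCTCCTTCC
chr5:150487587-150487786: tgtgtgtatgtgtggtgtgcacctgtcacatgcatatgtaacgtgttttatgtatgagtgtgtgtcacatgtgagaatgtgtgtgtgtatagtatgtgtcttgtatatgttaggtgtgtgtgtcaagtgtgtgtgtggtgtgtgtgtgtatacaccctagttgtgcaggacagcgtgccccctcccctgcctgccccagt
The CDH11 member scored 75.2 and 72.3 and had 34.0% GC, a skew of 20 points and no run of 12. The ANXA4 member scored 77.3 and 53.1 with a skew of 12 points, and the ANXA6 member scored 56.9 and 38.3 over a stretch of TG repeats with a skew of 6 points. High scores in both replicates were thus found with and without purine-skewed DNA.

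Other members among the 10 best lay 6.72 kb from ULBP2, a ligand of the immune receptor NKG2D (116.9 and 102.6), 57.4 kb from RABL2A (66.8 and 61.4) and 11.5 kb from the sialidase gene NEU4 (60.7 and 53.3). Of the 10, 5 fell in promoters, 4 in distal intergenic DNA and 1 in an intron, and 7 overlapped a peak in at least 1 UM-UC-3 library. A promoter here is the 3 kb on both sides of any transcript start, also of genes that are not protein-coding. Over all members, promoters held 15.7% and distal intergenic DNA 34.0%, and 7.36% and 7.38% overlapped a peak of UM-UC-3 replicates 1 and 2. Among the 100 best-ranked members these shares were 17%, 40%, 30% and 33%. The strongest single peaks scored lower, at 58.6 or less in replicate 1 and 35.2 or less in replicate 2. In replicate 1 they included peaks in introns of COL13A1, a collagen gene (35.5), and PRKCE, a protein kinase C gene (26.1), and in replicate 2 a peak in an intron of EML5, a microtubule-associated protein gene (35.2).

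To describe how alike the replicates were at the members, scores and peak ends were compared. The median score was 6.15 in replicate 1 and 5.29 in the overlapping peak of replicate 2, with a Spearman rho of 0.680 over the 36845 members. These points share the genome of the cell line, so rho is given as a description. Of the members, 3650 (9.91%) scored at least 10 in both replicates. Single peaks had median scores of 3.80 in replicate 1 and 3.86 in replicate 2, and a score of at least 10 was found in 21.5% of members against 3.00% of the single peaks of replicate 1. In the band of scores from 2 to 3, 17.8% of the replicate 1 peaks were found again in replicate 2, and among scores of 20 or more 96.6% were. The same shares on the side of replicate 2 were 47.4% and 93.1%. Scores and overlap come from the lists that chose the members, and no test was made of them.

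The ends of the peaks coincided more closely than the overlap rule required. The median overlap was 273 bp, for members with a median width of 299 bp, and 99.6% of the members overlapped by at least 100 bp. In 16615 members (45.1%), the start and the end both lay within 1 bp of those of the replicate 2 peak, and in 21.3% both were identical. Against the UM-UC-3 peaks that they overlapped, 1.66% of 2711 members and 1.73% of 2720 had both ends within 1 bp. Weak members coincided most often, with 56.0% for scores below 5, 39.5% from 5 to 10 and 31.7% for 10 or more. Whether the RT112 libraries share reads was not tested, since the lists hold none. Without these 16615 members, 20230 remained, and the main differences below are given without them where they moved.

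Few members sat at the edge of the rule. Only 31 members (0.0841%) overlapped by 20 bp or less, with a median score of 3.80, and 23 single peaks of replicate 1 lay within 20 bp of a replicate 2 peak without overlap, with a median score of 2.76. Within 1000 bp of a replicate 2 peak lay 3015 single peaks of replicate 1 (5.06%), and the median gap over all of them was 14.3 kb. The lists give no read counts, so the depth behind each peak is unknown and no counting interval can be given.

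The members' DNA was of intermediate GC content. The median over the 200 bp windows was 42.5%, against 41.5% and 42.0% for the single peaks of replicates 1 and 2, and 40% for 141789 windows of the same length placed every 20 kb over the genome without chromosome Y. Both tails of the genome distribution were thin in the members. A GC content under 30% was found in 2.84% of members, 5.13% and 3.92% of the single peaks and 10.7% of genome windows. A GC content of 60% or more was found in 0.309% of members, 0.274% and 0.245% of the single peaks and 3.11% of genome windows. The members thus lacked GC-rich DNA to a degree close to that of the single peaks, and AT-rich DNA more than these.

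**Figure D1:**
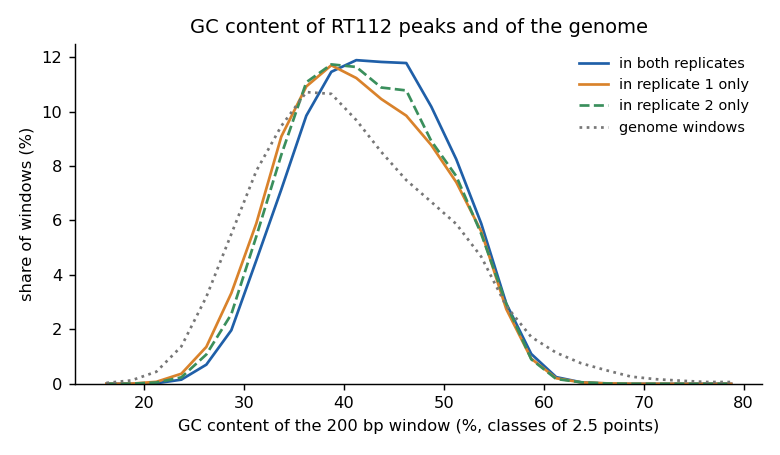
GC content of the 200 bp at the peak midpoint (horizontal axis, percent, in classes of 2.5 points) against the share of windows in each class (vertical axis, percent), for RT112 peaks in both replicates, in replicate 1 only and in replicate 2 only, and for 141789 genome windows. The peaks form a narrower distribution than the genome, and the members are shifted to higher GC content, with a median of 42.5% against 41.5% and 42.0%.

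Within score bands the order was kept. The difference in median GC content between shared and single peaks was 0.75 ± 0.354 points (SD over 2 replicates), and the shared peaks were higher in 13 of 14 bands of score and replicate and equal in 1. Shared peaks are nearly the same loci in both replicates. An SD over the RT112 replicates, here and below, thus does not come from independent sets of shared peaks. The CpG dinucleotide, which is depleted in most of the human genome through methylation and deamination, was as rare in members as in single peaks. The ratio of observed to expected CpG had a median of 0.153 in members, 0.155 and 0.154 in single peaks and 0.170 in genome windows.

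Purine-skewed DNA was more frequent in members than in single peaks. It made up 8.86% of the members and 5.94% of the single peaks in replicate 1, and 8.71% of the shared and 7.04% of the single peaks in replicate 2, against 4.49% of genome windows. The difference between shared and single peaks was 2.29 ± 0.888 points (SD over 2 replicates). The shares of the shared peaks were close, so this SD came mainly from the single peaks. The share followed the score in the members. It rose from 6.63% in the band of scores from 2 to 3 to 19.8% at scores of 20 or more in replicate 1, and from 6.02% to 25.0% in the shared peaks of replicate 2. Among the 1000 best-ranked members it was 21.2%, and among the 100 best-ranked 41.0%.

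At matched scores the replicates no longer showed the same order. In replicate 1 the shared peaks had the higher purine-skewed share in 7 of 7 score bands, and in replicate 2 in 4 of 7. At scores of 20 or more, 18 of the 49 single peaks of replicate 2 were purine-skewed (36.7%), against 165 of 661 shared peaks (25.0%). With single peaks weighted to the score bands of the shared peaks, the difference was 1.42 points in replicate 1 and -0.10 points in replicate 2.

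**Figure D2:**
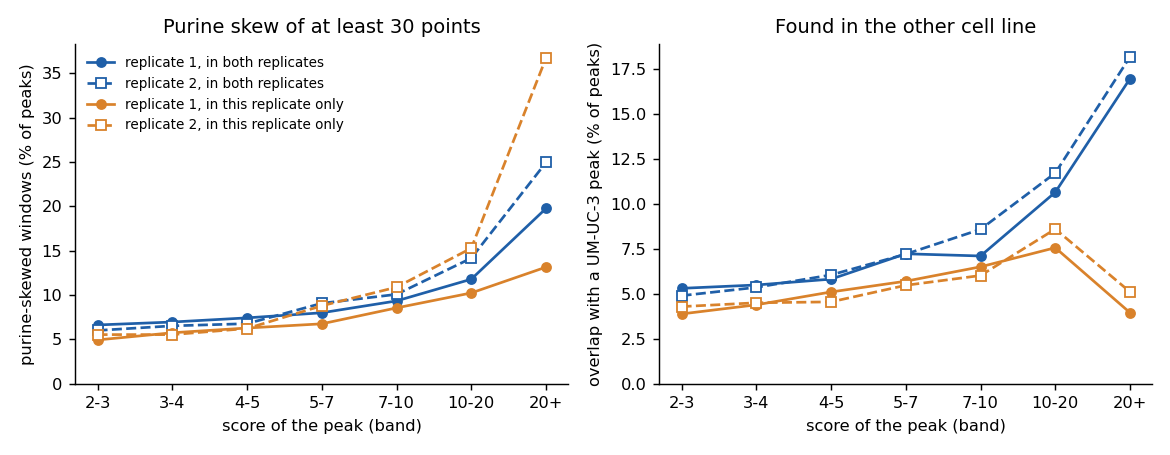
Share of purine-skewed windows (left, percent of peaks) and of peaks that overlap a UM-UC-3 peak (right, percent, mean of the 2 UM-UC-3 libraries) in 7 bands of score (horizontal axis, −log10 scale of the peak caller), for shared and single peaks of both RT112 replicates. The purine-skewed share is higher at high than at low scores in all 4 classes, while the overlap with UM-UC-3 is higher in the shared peaks in every band, up to 16.9% and 18.2% at scores of 20 or more.

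The 3266 purine-skewed members resembled the others in location. Introns held 47.7% of them, distal intergenic DNA 32.9% and promoters 15.4%, against 45.0%, 34.1% and 15.8% of the other 33579. Their median score was 7.43 against 6.15, and their median width 314 against 298 bp.

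Short sequence motifs were then counted in the same windows on both strands. The AT-rich ones were less frequent in members than in the single peaks of replicate 1 and in the genome. The TATA box letters TATAAA were present in 16.0% of members, 18.1% of these single peaks and 21.2% of genome windows. The polyadenylation signal AATAAA was present in 26.6%, 29.6% and 32.9%. A run of at least 10 A was present in 3.34%, 4.50% and 6.60%, and an AT repeat of 12 bp in 5 members (0.0136%), 39 single peaks (0.0655%) and 0.471% of genome windows. The gaps were smaller on the side of replicate 2. There TATAAA was present in 15.9% of shared and 17.1% of single peaks, and AATAAA in 26.7% and 28.6%. The run of A was present in 3.12% and 3.38%, and the AT repeat in 4 shared peaks (0.0108%) and 7 single peaks (0.0300%). These motifs can share bases, as where an AT repeat runs into TATAAA or a run of A into AATAAA, so their counts are not separate observations.

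Other motifs were more frequent in members than in the single peaks of replicate 1, or differed little. A GA repeat of 12 bp was present in 0.668% of members, 0.415% of the single peaks of replicate 1 and 0.408% of genome windows, and a GGAA repeat of the same length in 0.277%, 0.159% and 0.181%. The gaps were smaller on the side of replicate 2, where the GA repeat was present in 0.664% of shared and 0.575% of single peaks and the GGAA repeat in 0.284% and 0.249%. The letters CCCCAG were present in 14.0%, 12.5% and 12.2%, with 13.7% of shared and 13.1% of single peaks in replicate 2, and the E-box letters CAGCTG in 7.65% of members, 6.98% of the single peaks of replicate 1 and 6.88% of genome windows. The AP-1 letters TGACTCA, the binding sequence of FOS and JUN dimers, were present in 3.44% of members against 3.23% and 3.04%. The GC box letters GGGCGG, read by SP and KLF factors, were present in 1.77% of members and 1.79% of the single peaks, below the 2.90% of genome windows. A match of letters is a description and does not show a bound factor.

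The members' locations relative to genes were nearly those of the single peaks. Introns held 45.3% of the members, distal intergenic DNA 34.0% and promoters, defined as 3 kb on both sides of the start of any transcript, 15.7%. The genome's own division into these locations is not given beside them, so the percents do not show a preference. The single peaks of replicate 1 had 45.3%, 34.1% and 15.6%, and those of replicate 2 had 45.4%, 34.5% and 15.6%. Shared minus single peaks differed by 0.157 ± 0.0596 points in promoters and by -0.301 ± 0.238 points in distal intergenic DNA (SD over 2 replicates). The largest difference in any location and replicate was -0.469 points. In 3′ UTRs the replicates differed in sign, with 1.28% of members against 1.34% of the single peaks of replicate 1, and 1.28% of the shared against 1.09% of the single peaks of replicate 2. Without the members whose ends lay within 1 bp, the promoter difference was 0.513 points.

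Over the chromosomes the members were spread less evenly than the single peaks. The density was 12.9 members per Mb of known sequence in all. Chromosome 20 had 25.8 per Mb, with 1536 members on 2.08% of the known genome, followed by chromosome 8 with 17.2, chromosome 16 with 15.6 and chromosome X with 15.2. Chromosome 4 had 6.55 per Mb and chromosome Y 0.305, with 7 members. Without Y, the highest density was 3.94 times the lowest for members and 2.33 and 2.36 times for the single peaks of replicates 1 and 2.

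Outside chromosome Y, which held 7 members and had the highest shared percents, the share of peaks that were found again was highest on chromosome 20 and lowest on chromosome 4. On chromosome 20, 45.0% of the replicate 1 peaks and 67.3% of the replicate 2 peaks were shared, and on chromosome 4, 32.6% and 55.1%. The shared percents of the replicates had a Spearman rho of 0.667 over the 23 chromosomes, which share the members in both counts. The number of copies of each chromosome in RT112 was not measured, and its part in these densities was not tested.

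**Figure D3:**
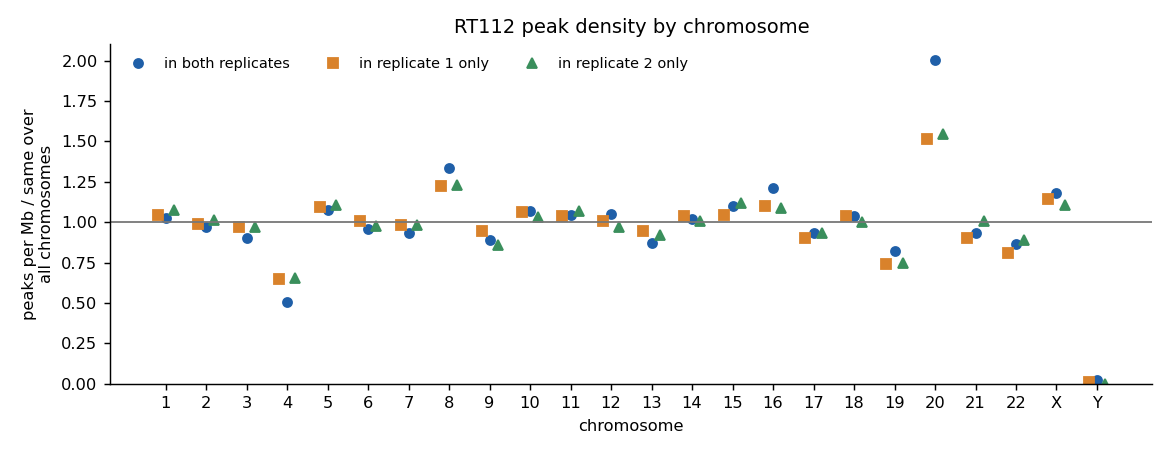
Density of RT112 peaks on each chromosome, as peaks per Mb of known sequence divided by the same value over all chromosomes (vertical axis), for peaks in both replicates, in replicate 1 only and in replicate 2 only. Members stand furthest above the line on chromosome 20 and furthest below it, without Y, on chromosome 4, with densities of 25.8 and 6.55 per Mb against 12.9 in all.

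In 1 Mb bins the members again varied more than the single peaks. Over 2869 bins with at least 50% known bases, the median was 12 members, the range from the 5th to the 95th percentile was 3 to 25 and the highest count was 46. The excess spread, which is the variance of the counts less their mean, divided by the squared mean, is 0 for counts that vary only by Poisson sampling. It was 0.202 for members and 0.117 and 0.128 for the single peaks of replicates 1 and 2, a difference of 0.0798 ± 0.00733 (SD over 2 replicates). The difference was 0.0625 without chromosomes 8 and 20, 0.0450 among scores below 5 and 0.113 without the members whose ends lay within 1 bp. Member counts rose with the single counts of replicate 1 (Spearman rho of 0.649 over the bins), with those of replicate 2 (0.557), with those of the UM-UC-3 libraries (0.431 and 0.435) and with the GC content of the bin (0.256). Bins are neighbours on the same chromosomes, so these values are descriptions.

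The densest bins were most frequent on chromosome 20. Of the 143 bins (5%) with the most members, each with at least 25, 29 were on chromosome 20, which was 49.2% of its bins. Chromosome 8 had 26 (18.2% of its bins), chromosome 16 had 12 (15.2%) and chromosome 5 had 18 (10.1%). The 14 on chromosome 1 were 6.17% of its bins, near the 5% over all bins. On chromosome 5, 16 of the 18 lay in the first 50 Mb. These 143 bins held 11.7% of the members, against 9.56% and 10.9% of the single peaks in their own densest 143. Such a share also depends on the number of peaks per bin. The mean was 12.8 for members and 20.7 and 8.10 for the single peaks, and the shares were not matched for it. The direction of the difference in share turned when single peaks were weighted to the score bands of the members, with shared minus single at -1.24 points in replicate 1 and -0.616 points in replicate 2.

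The densest bin, at 19 to 20 Mb on chromosome 20, held 46 members. It contains SLC24A3, which encodes a sodium, potassium and calcium exchanger, RIN2, a regulator of the GTPase RAB5, and NAA20, a subunit of an N-terminal acetyltransferase. The single counts there were 39 and 10, and the UM-UC-3 libraries had 30 and 37 peaks. The bin at 41 to 42 Mb on chromosome 20 held 45 members and lay mostly in PTPRT, a receptor-type protein tyrosine phosphatase. The bin at 79 to 80 Mb on chromosome 16 held 43 members, with WWOX, an oxidoreductase gene at a common fragile site, and MAF, a leucine zipper transcription factor. Of the other bins among the 10 densest, both on chromosome 20 held 40 members, with SRC and TGM2 in one and PCSK2 and OVOL2 in the other.

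The remaining 5 of these 10 bins lay between 129 and 137 Mb on chromosome 8, with 39 to 42 members each. They included TG, NDRG1, KCNQ3, ZFAT and KHDRBS3, and the bin from 129 to 130 Mb had 40 members and no protein-coding gene. UM-UC-3 was dense in the same 5 bins, with 59 to 74 peaks per library against a mean of 38.0 and 39.6 over all bins. Without members whose ends lay within 1 bp, the 10 bins still held 20 to 30 members each.

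**Figure D4:**
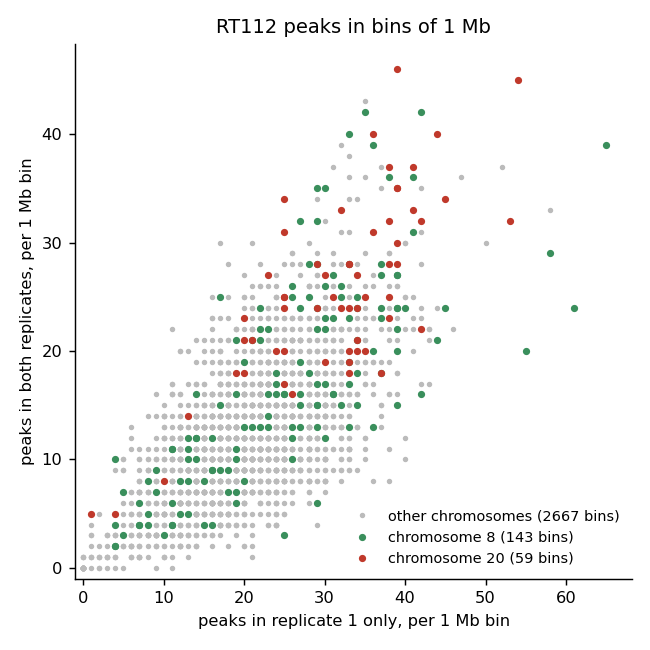
Number of members (vertical axis) and of single peaks of replicate 1 (horizontal axis) in each of 2869 bins of 1 Mb, with chromosomes 8 and 20 in colour. The counts rise together (Spearman rho of 0.649), and bins of chromosome 20 take the upper edge, up to 46 members.

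A total of 33 bins held no member, 22 of them on chromosome Y. The bin at 22 to 23 Mb on chromosome 9 stood out because it had 0 members and 0 single peaks in both RT112 replicates, whereas UM-UC-3 had 42 and 41 peaks. Its neighbours on the left and the right held 5 members each, with 11 and 10 single peaks of replicate 1. CDKN2A, which encodes the cell cycle inhibitors p16INK4a and p14ARF and is often deleted in bladder cancer, lies just before this bin, from 21967751 to 21995300. It had no RT112 peak within 3 kb and 1 peak in each UM-UC-3 library. Of the 33 bins, 3 had at least 20 peaks in both UM-UC-3 libraries. The others were at 21 to 22 Mb on chromosome 1 (29 and 35) and at 136 to 137 Mb on chromosome 4 (22 and 23), and both of these held single peaks of RT112. Whether DNA of these bins is lost in RT112 was not tested.

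Members lay in or within 3 kb of 7044 of 20163 protein-coding genes, which was 34.9%. This share depended on gene length. It was 7.99% for genes under 10 kb, 51.5% from 50 to 100 kb and 99.1% from 500 kb, while the density of members within genes varied less, from 0.800 per 100 kb in genes under 10 kb to 1.39 in those of 200 to 500 kb. A member within 3 kb of the annotated start of the gene was found for 772 genes.

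The genes with the most members were long. RBFOX1, which encodes a splicing regulator of neurons and muscle, held 65 members over 2474 kb, and MACROD2, which encodes a mono-ADP-ribosylhydrolase, 51 over 2058 kb. CDH13, a cadherin gene, held 47, PTPRT 45 and the ion channel gene ASIC2 34. Per length they ranked below the densest genes. Per 100 kb, RBFOX1 had 2.63 members and MACROD2 2.48, against 1.25 over all 11660 genes of at least 20 kb and 6.69 at their 99th percentile.

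Among the genes of at least 20 kb with at least 5 members, ANXA6 had the highest density. ANXA6 encodes a calcium-dependent phospholipid-binding protein of membranes. It held 8 members over 57.1 kb on chromosome 5, which was 14.0 per 100 kb and 11.2 times the density over all such genes, beside 2 single peaks of replicate 1 and 0 of replicate 2. From the 3′ end of the gene, which lies on the minus strand, the scores of its members were 56.9, 11.4, 7.43, 2.76, 2.41, 3.98, 9.99 and 5.46 in replicate 1. In the same order they were 38.3, 5.29, 4.09, 5.29, 3.61, 5.16, 2.97 and 2.64 in replicate 2. The first of them, whose sequence is given above, stood far above the others in both replicates, and it was the one member of ANXA6 that overlapped peaks of UM-UC-3, in both libraries. The gene itself held 6 and 4 peaks of UM-UC-3 replicates 1 and 2. Of the 8, 7 fell in the promoter category, which counts all annotated transcripts, and 1 in an intron.

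SLC13A4, a sulfate transporter gene, held 5 members over 48.0 kb, ATP6V1E2, which encodes a subunit of the vacuolar proton pump, 5 over 51.8 kb, and VAX2, a homeobox gene of eye development, 6 over 64.8 kb. These lengths are spans over all annotated transcripts, so the limit of 20 kb and the ranking depend on the annotation used. VAX2 had no single peak in either replicate and 1 peak in each UM-UC-3 library. The ATP6V1E2 members were among the stronger ones, with a median score of 10.1 in replicate 1 and a highest of 24.4 in replicate 1 and 24.0 in replicate 2. PCSK2, which encodes a convertase that cleaves prohormones, held 19 members over 258.5 kb on chromosome 20, the most among the 15 densest genes. Of these 19, 18 lay in introns, and the highest score was 54.6 in replicate 1 and 39.0 in replicate 2.

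Other genes among the 15 had 6.20 to 7.14 members per 100 kb. They included UCK2, a uridine-cytidine kinase gene, with 6 members, HUNK, a protein kinase gene, with 12, COLQ, which anchors acetylcholinesterase, with 5, and HOMER2, a synaptic scaffold gene, with 10. SLC9A2, a sodium and proton exchanger gene, and RPRD1B, which binds the tail of RNA polymerase II, held 6 each. GNG5B held 6, TG, the gene of thyroglobulin, 17 and OR4M2-OT1 5. A member of HOMER2 had the highest purine skew among the members of the 15 genes, at 79 points, and overlapped UM-UC-3 peaks in both libraries. Of the 128 members in these 15 genes, 65 remained without those whose ends lay within 1 bp, with 1 of 6 in GNG5B.

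**Figure D5:**
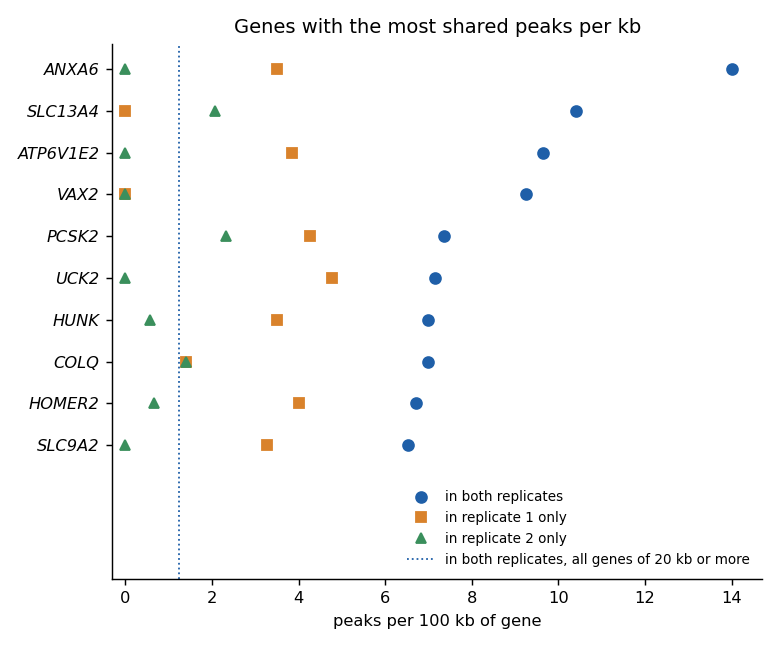
Peaks per 100 kb of gene (horizontal axis) for the first 10 of the genes of at least 20 kb ranked by members per kb, with at least 5 members each, for peaks in both replicates, in replicate 1 only and in replicate 2 only. The dotted line marks the density of members over all 11660 genes of at least 20 kb, 1.25 per 100 kb, and the genes, chosen by the blue points, range from 6.54 to 14.0.

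In the plasminogen system, 7 of 17 genes (41.2%) had a member in or within 3 kb of the gene, next to 34.9% of all protein-coding genes. Their median length was 32.2 kb, next to 27.2 kb over the protein-coding genes, and for genes of 20 to 50 kb the share was 29.7%. Among the targets of PAI-1, PLAT, the gene of tissue-type plasminogen activator, had 1 member with scores of 21.0 and 17.3, the strongest of the list, and PLAU, the gene of urokinase, had no RT112 peak. The urokinase receptor gene PLAUR had 1 member with scores of 3.80 and 3.27, which lay outside the gene, within 3 kb past its 3′ end. PLG, the gene of plasminogen, had 3 single peaks in replicate 1 and 1 in replicate 2. ANXA2, whose product binds plasminogen at the cell surface, had 2 members with scores of 4.94 in replicate 1 and 6.54 and 2.97 in replicate 2. CPB2, which encodes an inhibitor of fibrinolysis, had 1 member with scores of 14.6 and 10.8, and KLKB1, LRP1 and PLGRKT had 1 each. That of KLKB1 also lay past the 3′ end of the gene.

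Of 28 genes that are often altered in bladder cancer, 15 (53.6%) had a member, and their median length was 68.3 kb, next to 27.2 kb over the protein-coding genes. For genes of 50 to 100 kb the share over the genome was 51.5%. The chromatin regulator KDM6A, the retinoblastoma gene RB1 and the cohesin gene STAG2 had 4 members each, at lengths of 239.6, 295.7 and 462.5 kb. These lengths are spans over all annotated transcripts, so a member within a span may lie outside the shorter transcripts of that gene. The strongest of these members lay in the span of RB1, 228.0 kb from its start, with 14.6 and 10.5, and in that of STAG2, with 13.0 and 18.8. The 4 members in the STAG2 span lay 151.5 to 445.4 kb from its start. E2F3, a transcription factor gene controlled by RB1, had 3 members, with a highest score of 22.7 in replicate 1 and 10.8 in replicate 2 in its 3′ UTR. CREBBP, a histone acetyltransferase gene, and PIK3CA, a lipid kinase gene, had 2 each. FGFR3, TERT and CCND1 had no RT112 peak within 3 kb in either replicate.

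Of 14 uroplakin and urothelial keratin genes, 2 (14.3%) had a member, with a median length of 7.72 kb over the list. UPK2, which encodes a plaque protein of the urothelial surface, had 2 members within a span of 33.4 kb over all its annotated transcripts. They lay 13.7 and 32.4 kb from the start of this span, so either may lie outside shorter transcripts. Their scores were 15.7 and 9.63 in replicate 1 and 14.1 and 8.03 in replicate 2. UPK1B had 1, past the 3′ end of the gene, with scores of 8.39 and 2.57. In genes under 10 kb over the genome, 7.99% had a member. Without the members whose ends lay within 1 bp, 5 of the 17 plasminogen genes, 11 of the 28 bladder cancer genes and 2 of these 14 had a member, against 25.5% of all protein-coding genes.

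The overlap with UM-UC-3 was a measure from libraries that the choice of members had not used. Over both RT112 replicates, 7.25% and 7.29% of the shared peaks overlapped a peak of UM-UC-3 replicates 1 and 2, against 4.62% and 4.87% of the single peaks. The means were 7.27 ± 0.0278% and 4.75 ± 0.181% (SD over 2 UM-UC-3 libraries), a ratio of 1.53. The difference of 2.52 ± 0.153 points had the same sign in both UM-UC-3 libraries (exact paired permutation test, two-sided p = 0.5, the smallest that 2 libraries allow). It therefore could not pass a threshold in this design.

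The overlap with the other cell line rose with the score of the members, from 5.30% in the band of scores from 2 to 3 to 16.9% at 20 or more in replicate 1, and from 4.89% to 18.2% in replicate 2. Shared peaks were above single peaks in 14 of 14 bands of score and replicate. Width was not matched in these bands, and its part in the overlap was not tested. The median width was 299 bp in shared and 290.5 bp in single peaks of replicate 1, and 279 and 237 bp in replicate 2. Among the 38 and 49 single peaks with scores of 20 or more the overlap was 3.95% and 5.10%. With single peaks weighted to the scores of the shared peaks, the difference was 1.80 points. In both UM-UC-3 libraries were 2090 members (5.67%), against 3.56% and 3.67% of the single peaks. Of these 2090, 13.7% were purine-skewed, against 8.42% of the members found in neither UM-UC-3 library, while 14.9% of them lay in promoters and 35.1% in distal intergenic DNA.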

How the data were processed

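Anti-PAI-1 ChIP-seq was analysed from 4 peak lists, 2 of RT112 and 2 of UM-UC-3. Per the submitters' processing notes and the methods of the study, the authors used FastQC and Trimmomatic, mapped reads to hg19 with Bowtie 1.1.1, removed duplicates with Picard and called peaks with MACS2 2.1.0.20140616. Whether the input was the control and whether reads were pooled is not given in the sources used here. The deposited score of each peak was read as a −log10 value; the lists do not say whether of p or q.

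Overlaps, counts and composition were computed with Python 3.11.15, numpy 2.4.6, pandas 2.3.3, scipy 1.17.1, pysam 0.24.0 and matplotlib 3.10.9 on GRCh37 with GENCODE 44 genes mapped to it, and the procedures were tested on simulated data. Locations were assigned by any overlap, with promoters first, then UTRs (5′ before 3′), other exons, introns, the 3 kb past a gene and, last, distal intergenic DNA. Members within a gene were counted by midpoint, and members near a gene by overlap with the gene and 3 kb on both sides. A gene was taken as the span over all its annotated transcripts, which can reach far past its shorter ones. Named were the 15 genes of at least 20 kb and 5 members with the most members per kb, up to 6 genes of each list with the most members, the 10 densest bins, the 10 best-ranked members and the 5 strongest single peaks of each replicate. Some items that these rules named are not reported here. Other genes and the empty bins were chosen after their values were seen. The members, lists and rules were chosen with earlier results of these data known. Since the members come from the RT112 lists, shared and single peaks are compared as descriptions, with the SD over 2 biological replicates and no test, except for the overlap with UM-UC-3. The shared peaks of both replicates are nearly the same loci, so this SD is no measure of spread over independent differences.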

Additional observations from a re-analysis of the deposited data

How the results depend on the processing

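Of 68 alternative values for 9 results, 48 stayed within the spread of the replicates (or within 1.5 times for counts, and with the same sign for the overlap with UM-UC-3), 19 moved and 1 reversed. Differences were judged by their mean, so replicates of opposite sign can stand under each label. A score of at least 5 left 15101 members and 4157 genes with a member, and a window of 3 kb around the start left 772 genes. Without shared peaks whose ends both lay within 1 bp, an alternative chosen after the data were seen, 20230 members remained, and the differences between shared and single peaks were 0.513 points in promoters, 1.25 points in median GC content, 2.61 points for the share in the densest 1 Mb bins and 0.113 in excess spread. The promoter difference was 0.0791 points with a reciprocal overlap of 50%, 0.358 with single peaks weighted by score and 0.0246 with protein-coding genes, where the distal intergenic difference was -0.0591. With protein-coding genes, replicates 1 and 2 differed in sign, at 0.177 and -0.128 in promoters and 0.0758 and -0.194 in distal intergenic DNA. They also did at scores of at least 5, with -0.296 and 0.569 in promoters and 0.218 and -0.522 in distal intergenic DNA. Both means at these scores were counted as staying. Whole peaks gave a GC difference of 1.16 points. The purine-skewed difference, an addition like the excess spread, was 3.22 points at a skew of 20, 1.04 at a skew of 40 and 0.658 with weighting. The excess spread difference was 0.0625 without chromosomes 8 and 20, 0.0624 in bins of 5 Mb and 0.0450 for scores below 5. The share in the densest bins, 1.44 points higher in shared peaks, reversed to -0.928 with single peaks weighted by score; the cause was not tested. In the 2 RT112 replicates taken singly, the differences ranged from 0.793 to 2.09 points in the densest bins, 0.114 to 0.199 in promoters, -0.469 to -0.132 in distal intergenic DNA, 0.5 to 1 in GC content, 1.66 to 2.92 in purine-skewed DNA and 2.34 to 2.71 in the overlap with UM-UC-3. That overlap gave 2.41 and 2.63 in the 2 UM-UC-3 libraries taken singly. These are the values behind each mean, since shared peaks need both RT112 lists. Apart from the overlap with UM-UC-3, each lies within the SD of its mean by construction. Their place among the 48 therefore tests nothing. No paired analysis was possible because nothing pairs a numbered RT112 library with the UM-UC-3 library of that number. The permutation test of the overlap paired shared with single peaks within each UM-UC-3 library, not libraries by number. The depth of the libraries is unknown, copy number was not measured, and replicates share the genome of the cell line and, if it was used, its input.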
